A study of Mus musculus with 6 samples.

Results

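Prnd, Prnp and Sprn form the prion gene family of the mouse, and all 3 had a feature among the 23279 named genes measured here. The features carried Entrez gene IDs 26434 for Prnd, 19122 for Prnp and 212518 for Sprn. The family was selected on the difference between knockout and heterozygous values of Prnd, one of the largest in these same arrays. The values of the 3 genes in that comparison are therefore a description and carry no test.

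The arrays measured total RNA of whole fetal livers dissected at embryonic day 11.5. There were 3 arrays of livers labelled Stab2Cre;Gata4 knockout and 3 of control livers whose titles read Stab2Cre;Gata4 heterozygous. In the cross given with the labels, mice with the Stab2-Cre transgene and 1 floxed Gata4 allele were mated to Gata4fl/fl mice, so every embryo inherited at least 1 floxed allele, and the titles of both groups name the Cre. Stab2 is a scavenger receptor gene of the sinusoidal endothelium, the lining of liver capillaries. The Cre is thus aimed at these vessels and not at other liver cells, such as mesenchyme. Where recombination took place was not measured here. The number of embryos behind an array is not stated. The title of the series places the question in how endothelial GATA4 shapes liver vessels and blood formation.

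Prnp encodes the cellular prion protein, a copper-binding glycoprotein held on the outer cell surface by a GPI (glycosylphosphatidylinositol) anchor, best known from neurons and also made by blood cells and endothelium. Prnd encodes doppel, a shorter GPI-anchored relative that resembles the folded part of the prion protein, is abundant in the adult testis and has been described in endothelium of the developing mouse brain. Sprn encodes Shadoo, a brain protein that shares the hydrophobic stretch of the prion protein. Prnd lies directly downstream of Prnp in the same orientation, and in some Prnp-deficient mouse lines read-through and splicing from the Prnp promoter place Prnd under its control.

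Both neighbouring genes have their own promoter, and the start regions are shown because Prnd and Prnp were each higher in the livers labelled knockout, by very different amounts. The windows run from 250 bases before to 50 bases after the first start listed by RefSeq in GRCm38.p6, 5′ to 3′ on the plus strand, at chr2:131950611-131950910 for Prnd and chr2:131909678-131909977 for Prnp. Capitals mark the motifs GATAA, the core of GATA factor sites, and CACGTG, an E-box, on either strand.
Prnd: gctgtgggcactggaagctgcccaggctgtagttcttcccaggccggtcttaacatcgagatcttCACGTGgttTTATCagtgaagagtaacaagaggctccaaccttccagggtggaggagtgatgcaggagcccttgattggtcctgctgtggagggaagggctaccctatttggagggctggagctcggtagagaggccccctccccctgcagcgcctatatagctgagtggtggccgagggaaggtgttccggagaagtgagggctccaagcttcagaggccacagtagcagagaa
Prnp: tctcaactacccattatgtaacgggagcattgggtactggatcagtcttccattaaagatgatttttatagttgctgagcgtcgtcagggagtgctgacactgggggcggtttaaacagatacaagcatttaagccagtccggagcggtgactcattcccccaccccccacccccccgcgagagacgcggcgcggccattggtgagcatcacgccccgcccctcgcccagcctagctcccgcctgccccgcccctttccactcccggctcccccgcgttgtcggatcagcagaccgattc
The Prnd window held 1 GATAA, on the minus strand at position 75, and 1 CACGTG at position 66, with no overlap between them. Over all 32851 windows of this length in the table, 25.4% held GATAA and 7.2% held CACGTG. Neither motif occurred in the Prnp window or in the Sprn window. For Prnd 2 windows were available and only the first was examined, whereas Prnp and Sprn had 1 each. The Prnp window held 22 CpG dinucleotides and the Prnd window 7, against a median of 7 over all windows. These matches describe letters, and no binding was measured here.

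Libraries that differed in ways other than the labels are given before the values. Gata4 itself was higher in the livers labelled knockout, at 10.38, 10.26 and 10.64, against 9.90, 9.96 and 9.87 in the livers labelled heterozygous (log2 values). Its difference was 0.51 (SE 0.12, limma adjusted p = 0.0409), a call kept only without knockout replicate 2 (adjusted p = 0.0366) and lost without any other array (0.0645 without knockout replicate 1, 0.101 without knockout replicate 3, and 0.105, 0.101 and 0.144 without heterozygous replicates 1, 2 and 3). Where the probes of this feature sit relative to the floxed exons is unknown, and liver cells without Cre would keep Gata4. The label knockout could therefore not be checked by this feature, and every direction below rests on the labels. Xist, the RNA of the inactive X, read at least 10.3 in all 3 livers labelled knockout and 10.2 in heterozygous replicate 2, but 3.58 and 3.96 in heterozygous replicates 1 and 3, so embryo sex was not balanced. By most of the neuronal markers, knockout replicate 2 carried more neuronal RNA than the rest. Nefl, a neurofilament gene, read 7.0 there and at most 4.23 in the other arrays, and Map2, a neuronal microtubule gene, 8.96 there and at most 6.60 elsewhere. Summed over 15 measured neuronal markers the log2 values came to 74.2, 89.4 and 75.5 in the livers labelled knockout and 73.4, 75.0 and 72.8 in those labelled heterozygous. Heterozygous replicate 2 and knockout replicate 3 carried more heart muscle RNA: the 12 measured markers summed to 67.6, 67.1 and 83.2 in the livers labelled knockout and 74.8, 89.6 and 66.2 in those labelled heterozygous. Cardiac actin Actc1 read 10.9 in knockout replicate 3 and 11.3 in heterozygous replicate 2, and between 7.33 and 9.01 in the other arrays. The hepatoblast products Alb and Afp read at least 13.3 in every array.

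Prnd, the gene of doppel, was 5.31-fold higher in the livers labelled knockout. Its log2 values were 8.29, 8.76 and 8.26 in knockout replicates 1, 2 and 3, against 6.35, 5.53 and 6.21 in heterozygous replicates 1, 2 and 3. Every liver labelled knockout was above every liver labelled heterozygous, and a gap of 1.92 separated the lowest of the first from the highest of the second. Means were 8.44 ± 0.28 in the livers labelled knockout and 6.03 ± 0.44 in those labelled heterozygous (SD, n = 3 each), a log2 difference of 2.41 (SE 0.23). Over the 9 possible pairs of a knockout with a heterozygous array, the difference ran from 1.92 to 3.23, which is 3.77-fold to 9.39-fold. The gap between groups was wider than the spread within either of them, which was 0.50 in the livers labelled knockout and 0.82 in those labelled heterozygous.

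Among all genes, 4 had a larger positive log2 difference than Prnd. They were Xist (4.54), the cationic amino acid transporter gene Slc7a3 (2.98), the matricellular gene Sparcl1 (2.64) and the non-coding RNA Redrum (2.63), named after their values were seen. The ranking by the smallest pairwise difference put Sparcl1 (2.38) and Slc7a3 (2.09) above Prnd, whereas Redrum overlapped between the groups and the pairs of Xist came as close as 0.12. In whole liver, a larger number of Prnd-expressing cells and more Prnd RNA per cell cannot be told apart.

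Prnp, the gene of the prion protein, was 1.31-fold higher, a much smaller difference than that of its neighbour. It read 8.27, 8.11 and 8.24 in knockout replicates 1, 2 and 3, and 7.75, 7.60 and 8.10 in heterozygous replicates 1, 2 and 3. The groups came within 0.012 of each other, since heterozygous replicate 3 lay just under knockout replicate 2. Means were 8.21 ± 0.09 in the livers labelled knockout and 7.82 ± 0.25 in those labelled heterozygous (SD, n = 3 each), and the difference was 0.39 (SE 0.14). The spread of 0.50 among the livers labelled heterozygous exceeded that difference. Larger positive differences than that of Prnp were found for 1858 genes.

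Sprn, the gene of Shadoo, gave low values throughout. It read 3.65, 3.41 and 3.61 in the livers labelled knockout and 3.81, 3.89 and 3.66 in those labelled heterozygous. The mean was 3.56 ± 0.13 with the knockout label and 3.79 ± 0.12 with the heterozygous label (SD, n = 3 each). The difference was −0.23 (SE 0.11), and the groups were 0.011 apart. Only 23.6% of genes had a lower mean over the 6 arrays, and no detection call was available, so a level above background was not shown for Sprn.

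The 3 genes thus each had groups without overlap, Prnd and Prnp higher and Sprn lower in the livers labelled knockout. Groups without overlap were found for 27.3% of all 23279 genes, and since the comparison chose the genes nothing is read from their count. An adjusted p below 0.05 (limma), in either direction, was reached by 6.36% of all genes, 3.59% of them higher and 2.77% lower in the livers labelled knockout.

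**Figure D1:**
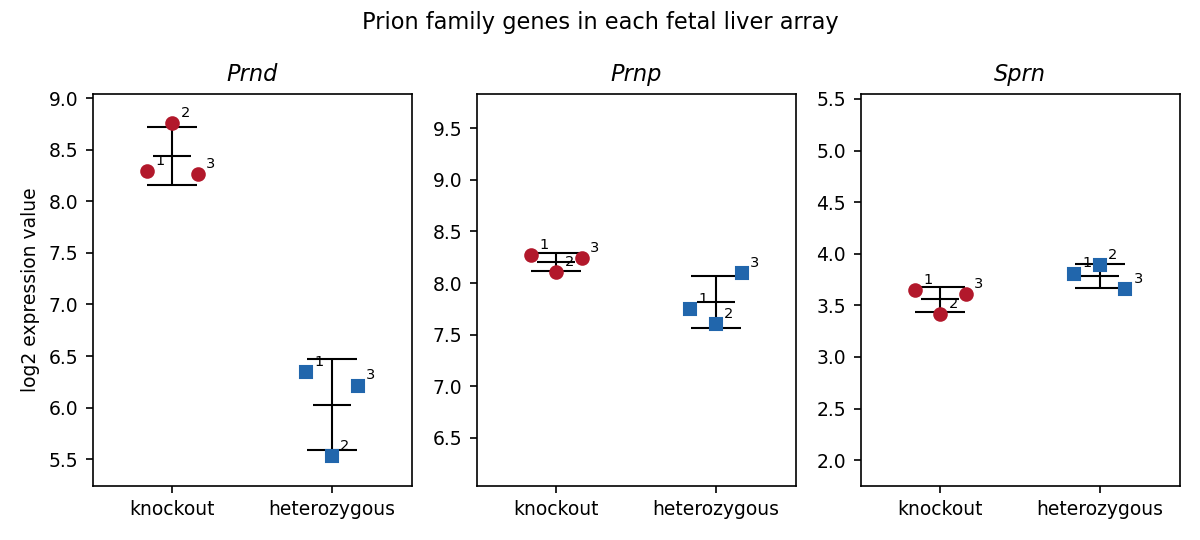
Log2 expression values of Prnd, Prnp and Sprn in each array, with livers labelled knockout as red circles and livers labelled heterozygous as blue squares; numbers are replicate numbers, and bars give the mean and SD of 3 arrays. The 3 vertical axes span the same number of log2 units, and only Prnd shows a gap (1.92) far wider than the spread within its groups.

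The differences were compared among arrays of like Xist level and without the array that carried neuronal RNA. Against heterozygous replicate 2 alone, the only control with high Xist, Prnd was higher by 2.91 and Prnp by 0.60, and Sprn differed by −0.33. A term for Xist level in the fit is bound to give the same values (SE 0.22, 0.17 and 0.15). All 3 livers labelled knockout had high Xist, so that term leaves heterozygous replicate 2 as the only control. Heterozygous replicate 2 had the lowest Prnd and the lowest Prnp value of all 6 arrays, so matching for Xist enlarged both differences. That array was also the one with the most heart muscle RNA, whose part in these values was not tested. Without it the Prnd difference was 2.16 (SE 0.17), and without knockout replicate 3, the other array with heart muscle RNA, it was 2.50 (SE 0.26). Without knockout replicate 2, which had the highest Prnd value, the Prnd difference was 2.25 (SE 0.23). Over the 6 fits that leave out 1 array, the difference lay between 2.16 and 2.57 for Prnd, between 0.28 and 0.53 for Prnp and between −0.29 and −0.16 for Sprn. The lowest Prnd and Prnp values in these fits came without heterozygous replicate 2.

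**Figure D2:**
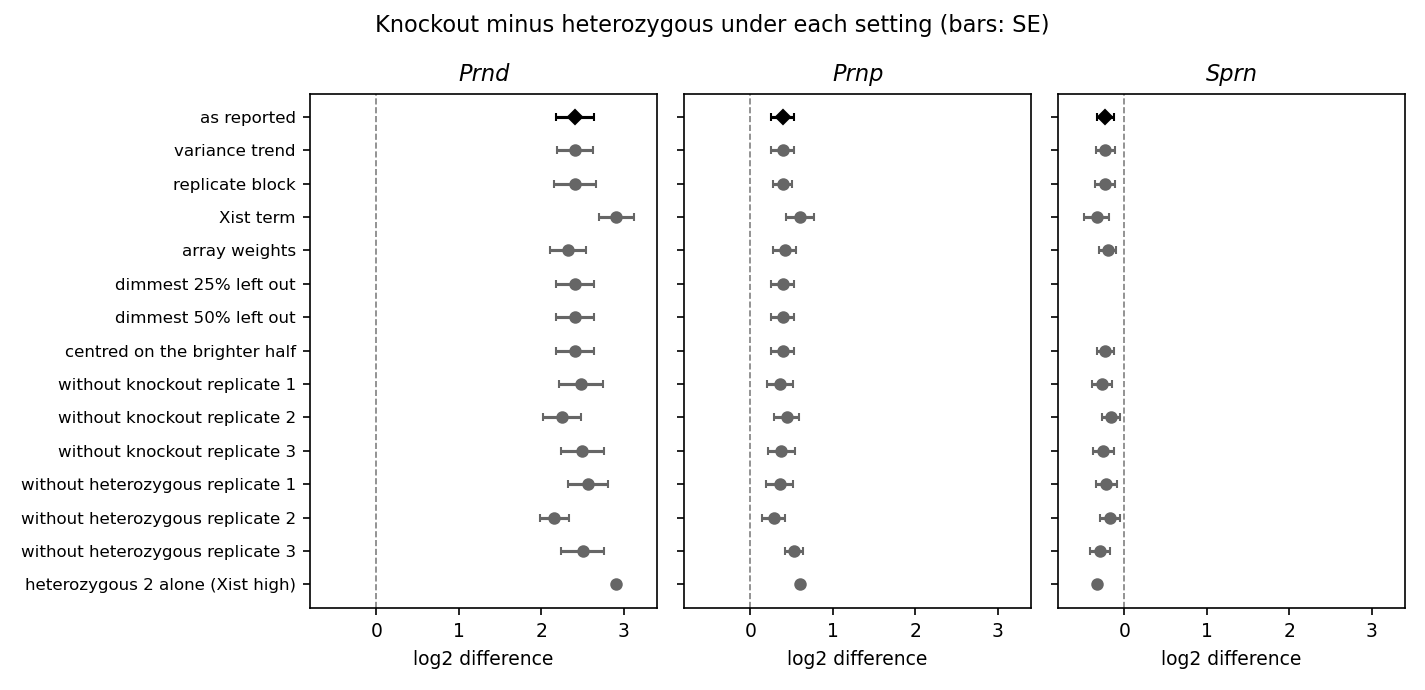
Log2 difference (knockout minus heterozygous, horizontal axis, bars ± SE) of Prnd, Prnp and Sprn as reported (black diamonds) and under each other setting (grey circles); the bottom row has no SE, and Sprn has no value where the dimmest genes are left out. Prnd lies between 2.16 and 2.91 throughout, Prnp between 0.28 and 0.60 and Sprn below 0.

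The chromosomal neighbours were examined because Prnd and Prnp adjoin each other on chromosome 2, with 0 measured coding genes between them. Of the 5 measured coding genes on each side of the pair, 0 of 10 passed at an adjusted p of 0.05 (limma, Benjamini-Hochberg over all genes), against 6.36% of all genes. An unadjusted p below 0.05 (limma) was found for 4 of them, against 5245 of all 23279 genes. When the prior variance followed expression level 1, Pcna, passed (adjusted p = 0.0475), against 1838 of all genes. Erv3, an endogenous retroviral gene next to Prnp, read 3.59, 3.51 and 3.4 in the livers labelled knockout and 3.59, 3.43 and 3.30 in those labelled heterozygous (difference 0.06, SE 0.11, limma adjusted p = 0.832). Rassf2, a Ras-association domain gene next to Prnd, read 6.41, 6.45 and 6.42 in the livers labelled knockout and 7.07, 6.71 and 6.49 in those labelled heterozygous (−0.33, SE 0.15, adjusted p = 0.223). Neither flanking gene had a difference near the size of that of Prnd, a gene chosen for its large difference.

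Further out, the spermine oxidase gene Smox differed by −0.48 (SE 0.17, limma adjusted p = 0.144) and the RING finger gene Rnf24 by 0.51 (SE 0.17, adjusted p = 0.122). Tmem230, a vesicle membrane protein gene, differed by 0.42 (adjusted p = 0.163) and Pcna, the sliding clamp of DNA replication, by −0.25 (adjusted p = 0.162). In these 4 genes and in Rassf2, 5 of the 10 neighbours, the groups did not overlap, in both directions, as was so for 27.3% of all genes. Mavs, Pank2, Slc23a2 and Cds2 lay between −0.07 and 0.23 with overlapping groups. Around Sprn on chromosome 7, 1 of 10 neighbours passed, the olfactory receptor gene Olfr522, which fell by 0.41 (SE 0.10, adjusted p = 0.0457). Its values were low, between 3.69 and 4.26, and the call was lost without any 1 array (adjusted p between 0.0616 and 0.132). Mtg1, a mitochondrial GTPase gene on the other side of Sprn, differed by −0.43 (adjusted p = 0.106).

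**Figure D3:**
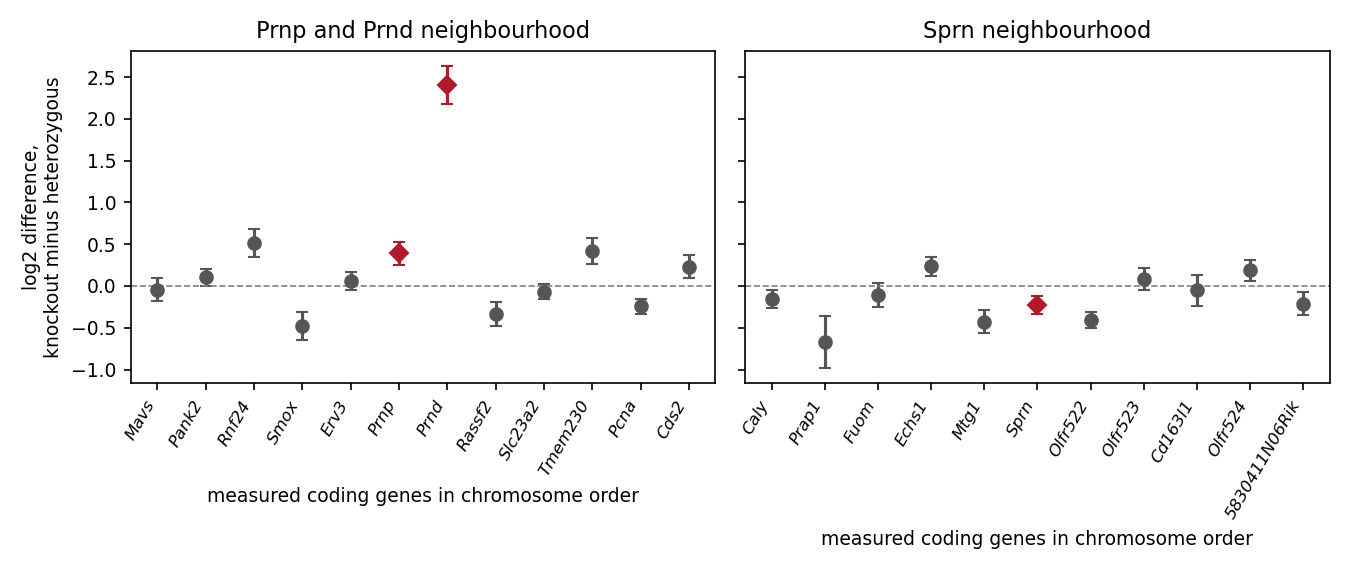
Log2 difference (knockout minus heterozygous, vertical axis, bars ± SE) of Prnp and Prnd (left) and Sprn (right) as red diamonds among the 5 measured coding genes on each side, in chromosome order, as grey circles. Prnd stands at 2.41 while its neighbours lie between −0.48 and 0.51.

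The genes whose profile over the 6 arrays was most like that of Prnd were sought by the root mean square difference between profiles, each set against its own heterozygous mean. Sparcl1, a secreted relative of Sparc made by vessels and astrocytes, was closest at 0.267. It read 8.78, 9.09 and 8.92 in the livers labelled knockout and 6.33, 6.15 and 6.40 in those labelled heterozygous, and like Prnd it was highest in knockout replicate 2 and lowest in heterozygous replicate 2. Rgs5, a pericyte gene, followed at 0.541, with 10.03, 10.00 and 9.93 in the livers labelled knockout and 8.66, 7.93 and 8.30 in those labelled heterozygous. Next came Ddit4, an inhibitor of mTORC1 (0.601), Slc7a3 (0.621) and Igfbp1, a secreted binding protein of insulin-like growth factors (0.674). Among livers labelled knockout, Ddit4 (8.65, 8.17, 8.64) and Slc7a3 (7.40, 6.37, 7.06) were lowest in replicate 2, where Prnd was highest. Igfbp1 read 9.99, 9.85 and 9.47 in these livers. These 5 were picked for their likeness to Prnd in these arrays, so no test of their differences is given with them.

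No gene came within 0.25 of the Prnd profile, whereas 2910 genes did so for Prnp and 12356 for Sprn. The nearest to Prnp were Mir192 (0.0755), Tmem63b (0.0757), Bcl6b (0.0827), Decr2 (0.0858) and Aldh8a1 (0.0860). Those nearest to Sprn, Adssl1, Cxcr5, Polr3g, Aimp2 and Tmem147, were all within 0.038 of it. Small differences are shared by so many genes that these 10 names do not single out a pattern.

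**Figure D4:**
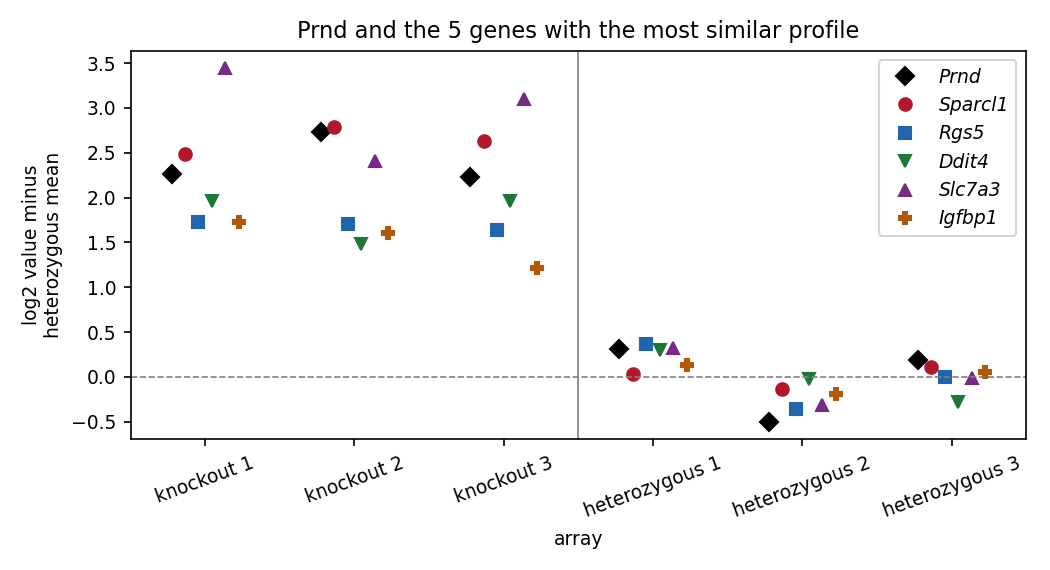
Log2 value minus the mean of the 3 heterozygous arrays (vertical axis) in each array, for Prnd (black diamonds) and the 5 genes with the most similar profile, with symbols set side by side within an array. All 6 genes lie above 1 in each liver labelled knockout, and Sparcl1 runs closest to Prnd.

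Genes that cut, bind or signal with the prion protein included several that rose. Of 23 measured proteases and surface partners, 5 rose and 0 fell, where 3.59% of all genes were called higher and 2.77% lower, with a median difference of 0.19 against −0.01 over all genes. This list and every list below were chosen with earlier results of these data known. Their counts beside the shares of all genes are therefore a description and not a test. Cav1, the caveolae protein through which the prion protein has been linked to the kinase Fyn, read 8.50, 8.39 and 8.29 in the livers labelled knockout and 6.94, 7.15 and 6.81 in those labelled heterozygous. That was a 2.69-fold rise (1.43, SE 0.12, limma adjusted p = 0.0059), with no overlap. Ncam1, a neural adhesion molecule that binds the prion protein, read 9.31, 9.33 and 9.36 in the livers labelled knockout and 8.74, 8.56 and 8.41 in those labelled heterozygous (0.76, SE 0.11, adjusted p = 0.0128), also without overlap. The amyloid precursor gene App rose by 0.71 (SE 0.10, adjusted p = 0.0128). Dpp6, an accessory subunit of potassium channels, rose by 0.75 (adjusted p = 0.0267), and Ece1, the endothelin-converting protease, by 0.51 (adjusted p = 0.0356). The main sheddase of the prion protein, Adam10, differed by −0.09 (adjusted p = 0.619), and Fyn by −0.04 (adjusted p = 0.888).

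Of these calls, that of Cav1 held without any 1 array. With a term for Xist level, heterozygous replicate 2 was in effect the only control. The differences then came to 1.24 for Cav1, 0.63 for App, 0.77 for Ncam1, 0.74 for Dpp6 and 0.51 for Ece1. No call is read from that fit, here or for the lists below. App lost its call without heterozygous replicate 3 (adjusted p = 0.0601), and Ncam1 without knockout replicate 3 (0.0516) or heterozygous replicate 3 (0.0584). Dpp6 kept its call without knockout replicates 1 (0.0381) and 2 (0.0129) and lost it without knockout replicate 3 (0.0853) or heterozygous replicates 1 (0.0711), 2 (0.0769) and 3 (0.0988). Ece1 kept its call without knockout replicate 2 (0.026) and lost it without knockout replicates 1 (0.0735) and 3 (0.109) or heterozygous replicates 1 (0.0738), 2 (0.102) and 3 (0.133). The list had 5 calls without knockout replicate 2, the array with the most neuronal RNA, and 3 without heterozygous replicate 1 or 2. It had 2 without knockout replicate 3 and 1 without heterozygous replicate 3. Over all 23279 genes these fits called 922, 555, 367, 262 and 41, in the order named.

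All 3 family proteins need a GPI anchor. Of 25 measured genes of anchor synthesis and attachment, 1 rose and 0 fell (median −0.04), a share near the 6.36% called over all genes. Pgap1, which trims the anchor after attachment, read 7.80, 8.24 and 8.17 in the livers labelled knockout and 7.49, 7.56 and 7.16 in those labelled heterozygous (0.66, SE 0.15, limma adjusted p = 0.0434). The call held without knockout replicate 1 (0.0267) and was lost without knockout replicates 2 (0.0936) and 3 (0.129) or heterozygous replicates 1 (0.0929), 2 (0.0832) and 3 (0.145). Pigq, of the complex that starts the anchor, differed by −0.40 (adjusted p = 0.108).

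The LIV-1 zinc transporters are evolutionary relatives of the prion family, and Slc39a6 and Slc39a10 carry a prion-like outer domain. Slc39a6 read 8.12, 8.77 and 8.48 in the livers labelled knockout and 7.73, 8.01 and 7.72 in those labelled heterozygous (0.64, SE 0.17, limma adjusted p = 0.0643). Slc39a10 read 9.21, 9.82 and 9.55 in the livers labelled knockout and 8.98, 8.96 and 8.70 in those labelled heterozygous (0.65, SE 0.16, adjusted p = 0.0559). Neither passed, although in both the groups did not overlap. Both passed with a variance trend (adjusted p = 0.0398 for Slc39a6 and 0.0286 for Slc39a10) and when the dimmest 50% were dropped (0.0386 and 0.0336). Without knockout replicate 1, the lowest knockout array for both genes, both passed (adjusted p = 0.0267 for Slc39a6 and 0.0257 for Slc39a10). Of 9 measured transporters 1 fell and 0 rose (median 0.01), where 2.77% of all genes were called lower. The call was Slc39a8 (−0.49, SE 0.11, adjusted p = 0.0457), lost without any 1 array (adjusted p between 0.0538 and 0.161). Among 12 copper-handling genes 0 passed, against 6.36% of all genes (median 0.05). An unadjusted p below 0.05 was found for 4 of the 12, against 5245 of all 23279 genes. A variance trend gave 1 call among them, against 1838 over all genes. The copper chaperone gene Cox17 differed by −0.42 (adjusted p = 0.0624), the dismutase gene Sod1 by −0.33 (adjusted p = 0.138) and the copper pump gene Atp7a by 0.51 (adjusted p = 0.140).

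Endothelial genes were compared because doppel has been described in brain endothelium. Of 24 measured genes of the brain barrier, 2 rose and 1 fell (median 0.17), against 3.59% higher and 2.77% lower over all genes. The glucose transporter gene Slc2a1 rose by 0.65 (SE 0.12, limma adjusted p = 0.0278) and the Wnt effector gene Lef1 by 0.81 (SE 0.16, adjusted p = 0.0315). The amino acid transporter gene Slc38a5 fell by 0.73 (SE 0.13, adjusted p = 0.0231). Slc2a1 and Slc38a5 are also expressed outside brain vessels. Without knockout replicate 3, or without heterozygous replicate 2 or 3, 0 of these 3 calls were kept. Those fits called 262, 367 and 41 of all 23279 genes. In addition Slc2a1 lost its call without knockout replicate 1 (0.0523) or heterozygous replicate 1 (0.0768), and Lef1 without knockout replicate 2 (0.0668) or heterozygous replicate 1 (0.0909).

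Of 20 measured genes of endothelial tip cells, which lead sprouting vessels, 10 rose and 0 fell (median 0.44). Over all genes 3.59% were called higher and 2.77% lower. Lama4, a laminin chain, read 7.58, 7.77 and 7.61 in the livers labelled knockout and 6.46, 6.80 and 6.32 in those labelled heterozygous (1.13, SE 0.13, limma adjusted p = 0.0098). The secreted proteoglycan gene Esm1 rose by 0.86 (SE 0.11, adjusted p = 0.0122), the Tie2 ligand gene Angpt2 by 0.72 (adjusted p = 0.0161) and the potassium channel subunit gene Kcne3 by 1.08 (adjusted p = 0.0170). Without heterozygous replicate 3 none of the 20 passed, Lama4 and Esm1 both at 0.0536, Angpt2 at 0.0735 and Kcne3 at 0.0784, while 8 rose without knockout replicate 2. Angpt2 also lost its call without knockout replicate 3 (0.0593), and Kcne3 without heterozygous replicate 2 (0.0568). The tip cell list called 3 without knockout replicate 3, 6 without heterozygous replicate 1 and 4 without heterozygous replicate 2. Over all 23279 genes these fits called 262, 555 and 367. The fit without heterozygous replicate 3 called 41 of all genes, and that without knockout replicate 2 called 922.

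Markers shared by all endothelium rose in 7 of 18 cases and fell in 0 (median 0.40), led by the adhesion molecule gene Pecam1 (0.63, SE 0.09, limma adjusted p = 0.0141), whose call was lost without knockout replicate 3 (0.0533) or heterozygous replicates 2 (0.0507) and 3 (0.0691). Sinusoidal markers went the other way, with 11 of 20 lower and 1 higher (median −0.55). Both counts stand against 3.59% higher and 2.77% lower over all genes. Mrc1, among the sinusoidal markers called lower, is also on the macrophage list, where 12 of 16 fell (median −1.09). The part of macrophages in the sinusoidal counts was not tested. The orphan receptor gene Gpr182 fell by 1.18 (SE 0.12, adjusted p = 0.0081), a call held without any 1 array. Stab2, whose promoter drives the Cre, fell by 1.30 (SE 0.20, adjusted p = 0.0161), a call lost without heterozygous replicate 2 (0.0554) or 3 (0.0678). Without heterozygous replicates 1, 2 and 3 in turn, the shared list called 2, 0 and 0 and the sinusoidal list 7, 6 and 3. Over all 23279 genes these fits called 555, 367 and 41. The shared list called 4 and 1 without knockout replicates 1 and 3, against 1395 and 262 over all genes. Against heterozygous replicate 2 alone, which matched in Xist, the medians were 0.27 for the brain barrier, 0.42 for tip cells, 0.45 for shared and −0.48 for sinusoidal markers. The Prnd difference of 2.41 was larger than that of any measured member of these 4 endothelial lists, whose highest was 1.13. Since Prnd was chosen for its large difference, nothing is read from this order. The part of vessel number or type in the Prnd difference was not tested.

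Other cell types in the sample were counted in the same fit, where 3.59% of all genes were called higher and 2.77% lower. Mesenchyme and pericyte markers rose in 6 of 18 cases and fell in 0 (median 0.54). Among them were Rgs5, with the values given above, and Pdgfrb, a receptor gene of pericytes (0.56, limma adjusted p = 0.0208). The Pdgfrb call was lost without knockout replicate 3 (0.0683) or heterozygous replicates 1 (0.0628), 2 (0.0558) and 3 (0.0766). Their summed log2 values were 149 to 152 in the livers labelled knockout and 141 to 143 in those labelled heterozygous. Of 10 mesothelial markers 2 rose, and of 14 hepatoblast markers 1 rose, with 0 lower in both (medians 0.33 and 0.18). The hepatoblast share was near the 6.36% of all genes called in either direction. Blood markers fell: 4 of 12 erythroid (median −0.77), 12 of 16 macrophage (−1.09), 5 of 11 megakaryocyte (−0.87) and 3 of 15 stem and progenitor genes (−0.33), with 0 higher in each. Without heterozygous replicate 3 these calls came to 1, 3, 0 and 0, and mesenchyme to 1, hepatoblasts and mesothelium to 0. Mesenchyme also had 1 call without heterozygous replicate 2 or knockout replicate 3. Megakaryocyte calls ranged from 0 (without knockout replicate 3 or any 1 heterozygous array) through 1 without knockout replicate 2 to 11 without knockout replicate 1. Without knockout replicate 1 there were 6 erythroid and 6 progenitor calls, and without knockout replicate 2 there were 5 hepatoblast calls. Over all 23279 genes, 1395, 922 and 262 were called without knockout replicates 1, 2 and 3. Without heterozygous replicates 1, 2 and 3 the calls over all genes came to 555, 367 and 41. Heart muscle markers (12) and markers of glia and neural crest (8) had 0 calls. An unadjusted p below 0.05 was found for 1 and 4 of them, against 5245 of all 23279 genes. With a variance trend both had 0 calls, against 1838 over all genes.

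Neurons are the best known source of Prnp and Sprn, and neuronal RNA was high in 1 array. Of 15 neuronal markers 1 rose, a share near the 6.36% called over all genes. It was Dcx of migrating neurons (0.83, SE 0.18, limma adjusted p = 0.0357), whose call was kept without knockout replicate 1 (0.014) only, with 0.0598, 0.108, 0.102, 0.0893 and 0.12 without the others (knockout replicates 2 and 3, then heterozygous replicates 1, 2 and 3). The median of the list was 0.18, and 0.02 without knockout replicate 2. In that array, where Nefl, Nefm (7.10) and Map2 were highest, Prnp and Sprn had their lowest values among the livers labelled knockout, and Prnd its highest. The part of neuronal RNA in the Prnd value of that array was not tested, and the Prnd difference remained 2.25 without it.

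**Figure D5:**
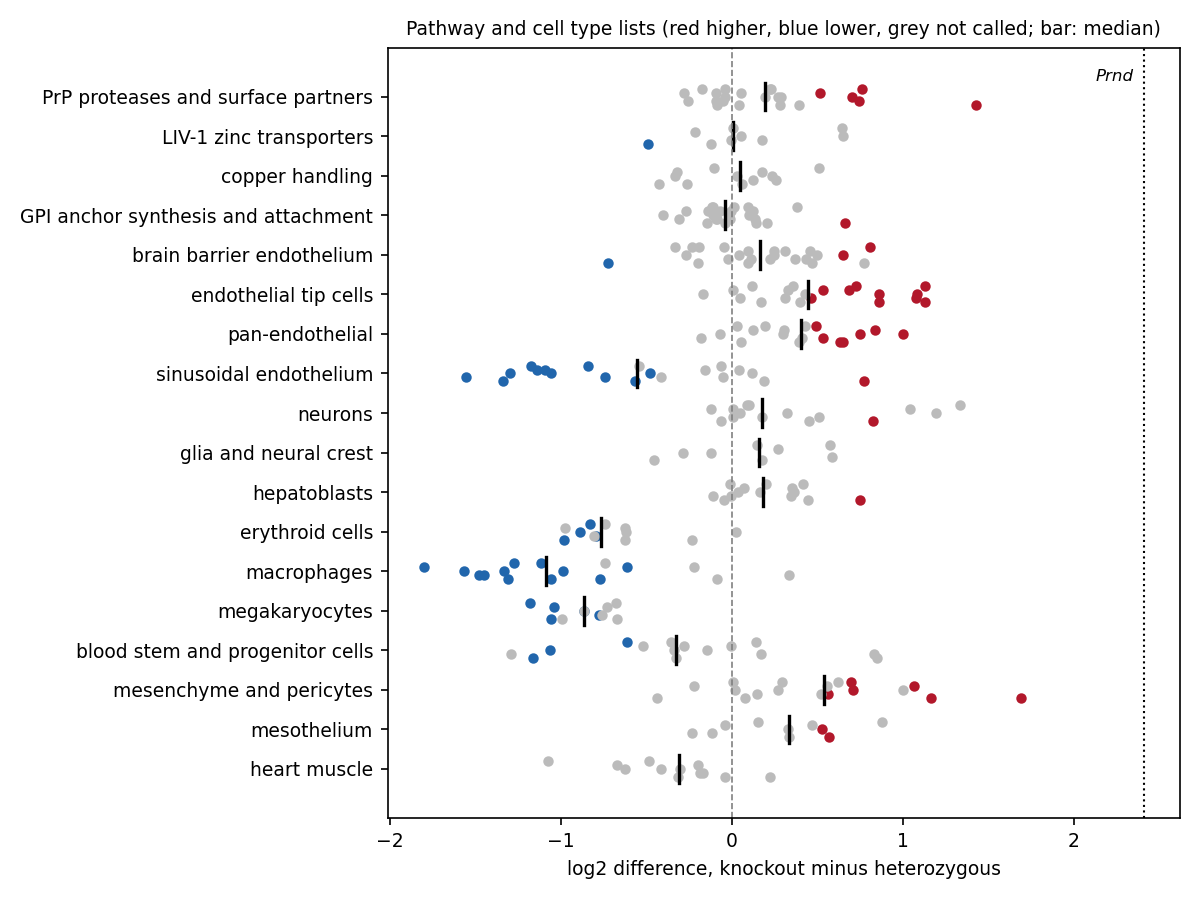
Log2 difference (knockout minus heterozygous, horizontal axis) of each measured gene in the pathway and cell type lists, with genes called higher in red, genes called lower in blue and the rest in grey; black bars are medians, the vertical spread of points within a list has no meaning, and the dotted line marks Prnd at 2.41. No listed gene reached the line of Prnd, which was chosen for its large difference, and the largest rise was that of Rgs5 at 1.69.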

How the data were processed

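Per the labels, total RNA of fetal liver was hybridised to 6 Affymetrix arrays (2 groups of 3). The authors deposited log2 expression values made with RMA, per the submitters' processing notes. RMA corrects background, equalises the distributions of arrays and combines probes. The sources used here do not give its version, the chip definition or the probe positions. Values ran from 2.55 to 13.9 with a median of 5.43 and an identical distribution in every array, so a common shift is invisible. Depth has no counterpart here: the number of arrays limits precision. Columns without a sample numbered 0.

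Of 24479 features, 23281 were named by Entrez ID, 23156 through the RefSeq gene table of GRCm38.p6 and 125 through the platform annotation. The brighter feature was kept for 2 repeated names, leaving 23279 genes. The array's build is unknown, so the table served for names and gene order only.

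limma 3.58.1 in R 4.3.3 (lmFit, eBayes) compared knockout with heterozygous arrays without covariates or a filter, with Benjamini-Hochberg adjustment over all genes and a threshold of 0.05. The fit was tested on simulated data. The labels call the replicates biological and do not say whether embryos were littermates. Same-numbered arrays did not deviate together (r −0.05, −0.01 and −0.08 across genes).

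The family and the 18 gene lists (282 of 293 entries matched, some in several lists) were chosen with earlier results of these data known. Named genes are the family, Gata4, Xist, chromosomal neighbours, up to 5 members per list with the smallest p, preset markers and the 5 nearest profiles of each family gene. Predicted and Riken genes were passed over. Adam10, Fyn, Redrum, Mapt, Rbfox3, Syp, Foxf2 and Pdgfra fall outside this rule and were named after their values were seen.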

Additional observations from a re-analysis of the deposited data

How the results depend on the processing

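The direction of the Prnd, Prnp and Sprn differences was the same in all settings that gave a value. The values of Prnd and Prnp moved by more than their pooled SD within groups (0.37 and 0.19) in 2 settings. These were the Xist term and heterozygous replicate 2 alone, which are the same comparison. In both, Prnd came to 2.91 and Prnp to 0.60, while Sprn moved by less than its pooled SD (0.12). Leaving out 1 array gave 2.16 to 2.57 for Prnd, 0.28 to 0.53 for Prnp and −0.29 to −0.16 for Sprn, and Sprn could not be fitted with the dimmest 25% or 50% of genes left out. With the replicate number as a block the Prnd difference was 2.41 (SE 0.25). The shared numbers are no sign of pairing, and that block called 686 genes against 1480, and 0 of the neighbours. The called genes named that did not pass with it included Gata4, Olfr522, Ece1, Slc39a8, Pgap1, Slc2a1 and Pdgfrb. With the Xist term heterozygous replicate 2 was in effect the only control, so no call is read from that fit. The Ncam1 difference was 0.77 with it against 0.76, and that of Cav1 1.24 against 1.43. Leaving out 1 array called 41 to 1395 genes (41 without heterozygous replicate 3). It called 8 to 75 of the list members against 72, and 0 neighbours against 1. Leaving out the dimmest 50% also gave 0 neighbours, since Olfr522 was then among the genes left out. Slightly negative or positive neighbours changed sign: Mavs with the Xist term (0.16) and without 1 array (−0.15 to 0.076), Erv3 without 1 array (−0.013 to 0.13) and Slc23a2 with the Xist term (0.0039). The cardiac gene Actc1, not called, ranged from −1.71 to 0.21 without 1 array. The cause of these changes was not tested. No signal over background was available, which limits dim genes such as Sprn, Erv3 and Olfr522 most.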
